A study of Drosophila melanogaster with 2 samples.

Results

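The Cpr genes of Drosophila melanogaster encode cuticle proteins that carry the Rebers-Riddiford region, a conserved stretch known to bind chitin. They were taken as every row of the deposited gene table whose symbol starts with Cpr and a digit, which gave 69 of 13989 genes. The digits and first capital letter of a symbol name the cytological position on the polytene chromosomes, and the 69 genes lay at 33 positions, 21 of them with a single member. Insect cuticle is a layered extracellular matrix of chitin fibres and proteins that is rebuilt at each molt and at metamorphosis. Epithelia express different cuticle protein genes in turn as the titre of the molting steroid ecdysone rises and falls, through the ecdysone receptor and the transcription factors it induces. The wing disc, the larval epithelium that forms the wing blade, hinge and part of the thorax, secretes pupal and later adult cuticle. For most individual Cpr genes membership of this family is the only role stated here.

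The libraries came from wing discs of wandering-stage larvae. In the GFP_Tai genotype (Tai+/GFP+, en>GFP,Tai), the engrailed (en) driver of posterior disc cells expressed Taiman (Tai), a coactivator of the ecdysone receptor, together with green fluorescent protein. In the GFP genotype (GFP+, en>GFP), the same driver expressed green fluorescent protein alone. Each library held RNA from a pool of 80 to 100 whole discs, so anterior cells without driver activity contributed to every value, and more RNA per cell and more cells of a type cannot be told apart. The series design speaks of triplicates, but only 1 value per gene and genotype was analysed here. The differences below therefore lack a check between replicates, and the genotypes were not tested against each other.

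The unit is FPKM, fragments scaled to transcript length and library size, which allows levels of different genes to be set side by side. The depth, estimated from the steps between low values, was 10622586 fragments for GFP_Tai and 8129830 for GFP. The tai gene itself had 879 FPKM in GFP_Tai and 27.1 in GFP, a ratio of 32.4. All 10 wing disc markers examined (vg, nub, ap, sd, wg, en, inv, hh, ci and ptc) were detected and none differed 2-fold. Their summed level was 668 FPKM in GFP_Tai and 672 in GFP.

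Differences are given as log2((GFP_Tai FPKM + 1) / (GFP FPKM + 1)), called the log2 difference, which understates the change of low genes. A gene is called higher or lower when this value reaches 1 or -1, a 2-fold difference. Ratios are plain FPKM ratios, and their 95% intervals are exact (Clopper-Pearson) intervals from the split of the estimated fragments between the libraries. These intervals cover counting error only, and not the spread between animals or libraries.

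Of the 69 Cpr genes, 16 were higher in GFP_Tai by 2-fold or more and 2 were lower by that factor. The 16 made up 23.2% of the family, where 3.73% of all rows of the table were higher. The 2 made up 2.90%, where 1.07% of all rows were lower. With the family restricted to the 32 genes that reached FPKM 1 in either library, 50% were higher and 6.25% lower. Of all 8275 genes past the same minimum, 6.31% were higher and 1.81% lower. A gene listed at 0 or near it in GFP passes that minimum only by being high in GFP_Tai, so the share over all rows is the plainer one. The median log2 difference of the 32 was 0.93, against -0.02 for the 8275. Over all 69 Cpr rows the median was 0, as it was over all 13989 rows. Of the 32, 25 lay above 0 and 7 below, where 3819 of the 8275 lay above 0 and 4456 below. Only 23 of the 32 reached FPKM 1 in GFP, and the rest could pass the minimum only by lying above 0.

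The other 37 Cpr genes stayed under FPKM 1 in both libraries. Of these, 24 were listed at 0 in both: Cpr23B, Cpr30F, Cpr47Ea, Cpr47Ed, Cpr47Ef, Cpr47Eg, Cpr49Aa, Cpr49Ab, Cpr49Ad, Cpr49Ae, Cpr49Af, Cpr50Cb, Cpr64Ab, Cpr65Au, Cpr65Av, Cpr65Aw, Cpr65Ax2, Cpr65Az, Cpr65Ea, Cpr73D, Cpr76Ba, Cpr76Bb, Cpr78Cb and Cpr92F. An exact 0 in a table of this kind can be a failed estimate, so these genes are described only as listed at 0. The remaining 13 lay between 0 and 0.498 FPKM, 12 of them on an estimated 4 fragments or fewer in each library. The other one was Cpr50Ca, with 0.498 FPKM on an estimated 17 fragments in GFP_Tai and a listed 0 in GFP.

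**Figure D1:**
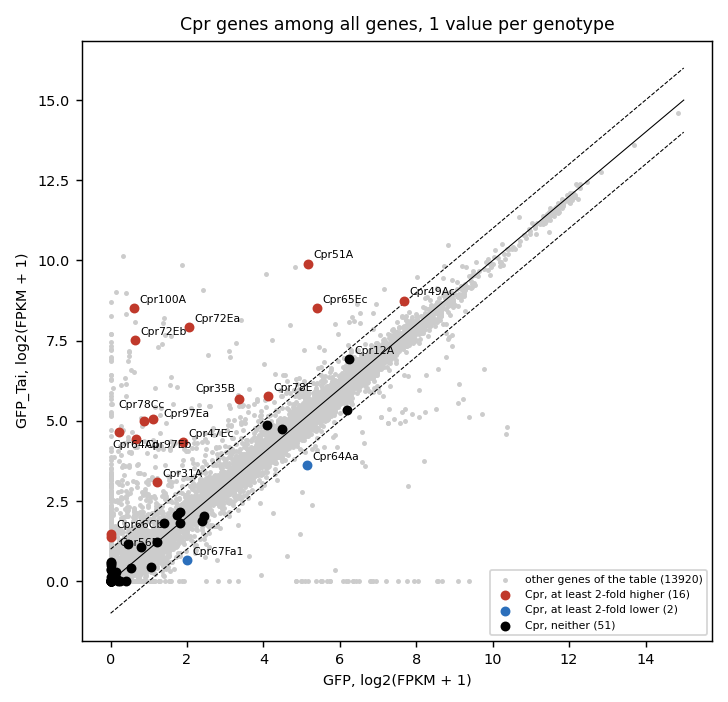
Each point is a gene, with log2(FPKM + 1) in GFP on the horizontal axis and in GFP_Tai on the vertical axis; grey points are the other 13920 genes, coloured and black points the 69 Cpr genes, and dashed lines mark a 2-fold difference on this scale. The 16 red points above the upper dashed line span the range from a listed 0 in GFP (Cpr66Cb and Cpr56F) to 205 FPKM in GFP (Cpr49Ac), and 2 blue points lie below the lower line.

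The family as a whole took up more of the GFP_Tai library. Summed over the 69 genes, FPKM was 3024 in GFP_Tai and 561 in GFP, a ratio of 5.39. A single gene, Cpr51A, gave 31.6% of the GFP_Tai sum and 6.19% of the GFP sum. Without it the sums were 2068 and 526 FPKM in GFP_Tai and GFP. In both libraries 5 genes carried most of the sum, 77.7% in GFP_Tai and 76.1% in GFP, but only 3 genes were in both sets. Cpr51A, Cpr49Ac, Cpr65Ec, Cpr100A and Cpr72Ea led in GFP_Tai, whereas Cpr49Ac, Cpr12A, Cpr49Ag, Cpr65Ec and Cpr51A led in GFP. Cpr100A ranked 4 of 69 in GFP_Tai and 28 in GFP.

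Some Cpr genes were near silent or low in GFP discs and abundant in GFP_Tai discs. Cpr100A (FBgn0039805, 3R:30867521-30869184 in BDGP6, the build of all coordinates here, plus strand, 723 nt coding) had 362 FPKM in GFP_Tai and 0.529 in GFP. It had the largest ratio of the family, 684 (interval 293 to 2109), on an estimated 4472 and 5 fragments in GFP_Tai and GFP. Cpr72Eb (3L:16364899-16365707, plus strand) had 182 FPKM in GFP_Tai and 0.560 in GFP. That ratio was 325 with an interval of 90.0 to 2697, and the GFP value rested on an estimated 2 fragments. Its neighbour Cpr72Ea (3L:16362603-16363750, plus strand) had 242 FPKM in GFP_Tai and 3.14 in GFP. Here the ratio was 77.2 with a narrower interval of 50.9 to 124, as the estimate was 2223 and 22 fragments in GFP_Tai and GFP.

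A further set had lower levels in GFP_Tai discs and few fragments in GFP discs. Cpr64Ad had 24.2 FPKM in GFP_Tai and 0.167 in GFP, where it rested on an estimated single fragment, so its ratio of 145 has an interval of 25.8 to 5773. Cpr78Cc had 30.9 FPKM in GFP_Tai and 0.817 in GFP (ratio 37.9, interval 10.2 to 317). The neighbours Cpr97Ea and Cpr97Eb differed by similar factors. Cpr97Ea had 32.6 FPKM in GFP_Tai and 1.14 in GFP (ratio 28.6, interval 16.1 to 55.5). Cpr97Eb had 20.6 FPKM in GFP_Tai and 0.586 in GFP (ratio 35.2, interval 13.5 to 131). The intervals of both genes overlap widely. Cpr66Cb had 1.80 FPKM in GFP_Tai on an estimated 15 fragments, and Cpr56F had 1.60 on an estimated 18. Both were listed at 0 in GFP.

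Other members were already well expressed in GFP discs and still higher with Tai. Cpr51A (2R:14512559-14515211, minus strand, 432 nt coding) was the most abundant Cpr gene of the GFP_Tai library, with 956 FPKM there and 34.7 in GFP. Its ratio was 27.5 with an interval of 23.1 to 33.2, the estimate being 4579 and 127 fragments in GFP_Tai and GFP. Cpr65Ec (3L:7093204-7093841, plus strand) had 362 FPKM in GFP_Tai and 41.0 in GFP, a ratio of 8.83 with an interval of 7.31 to 10.8. Both intervals are narrow because neither library was short of fragments for these genes. Cpr49Ac, the most abundant Cpr gene of the GFP library, had 429 FPKM in GFP_Tai and 205 in GFP, a ratio of 2.09 with an interval of 1.96 to 2.23. Its log2 difference of 1.06 lay just inside the threshold, and the interval reached below 2. It has 6 annotated transcripts, and its fragments were estimated from the shortest.

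The remaining higher members had ratios between those of Cpr65Ec and Cpr49Ac. Cpr47Ec had 19.2 FPKM in GFP_Tai and 2.71 in GFP (ratio 7.08, interval 2.54 to 27.3). Cpr31A had 7.44 FPKM in GFP_Tai and 1.34 in GFP (ratio 5.57, interval 2.95 to 11.6). Cpr35B had 50.5 FPKM in GFP_Tai and 9.18 in GFP (ratio 5.50, interval 3.81 to 8.17). These 3 had similar ratios at different levels. Cpr78E had 53.5 FPKM in GFP_Tai and 16.5 in GFP (ratio 3.25, interval 2.21 to 4.90). Of the 16 higher genes, 13 had an interval wholly above a ratio of 2. The other 3 were Cpr49Ac and the 2 genes listed at 0 in GFP, for which no ratio was formed.

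**Figure D2:**
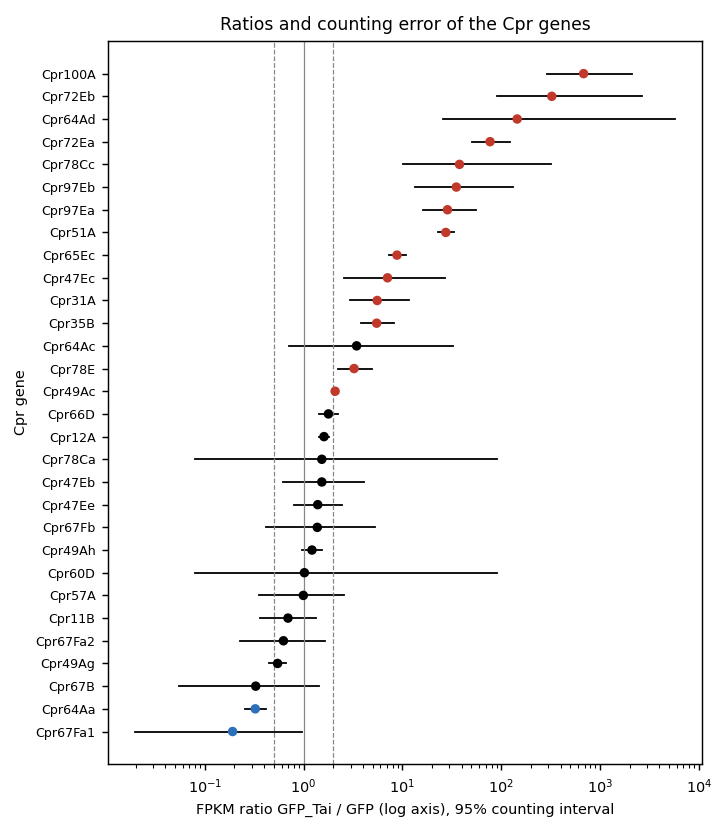
Points give the FPKM ratio of GFP_Tai over GFP on a log axis for the 30 Cpr genes that reached FPKM 1 in either library and lay above 0 in both, and bars give its 95% counting interval; red and blue mark genes at least 2-fold higher or lower, the solid line marks equal values and dashed lines a ratio of 2 and of 0.5. Colours follow the log2 difference with its added 1, so the black points of Cpr64Ac and Cpr67B lie past a dashed line. Ratios run from 0.191 (Cpr67Fa1) to 684 (Cpr100A), and the bars are long where a library held few fragments, as for Cpr64Ad.

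The 2 lower members were Cpr64Aa and Cpr67Fa1. Cpr64Aa (3L:4207838-4209178, minus strand) had 11.2 FPKM in GFP_Tai and 34.5 in GFP, a ratio of 0.325 with an interval of 0.253 to 0.414. Cpr67Fa1 had 0.567 FPKM in GFP_Tai and 2.96 in GFP, a ratio of 0.191 with an interval of 0.0198 to 0.959. Only the first has an interval wholly below 0.5, since Cpr67Fa1 rested on an estimated 2 and 8 fragments in GFP_Tai and GFP. The symbols Cpr67Fa1 and Cpr67Fa2 mark a duplicated pair with the same coding length of 402 nt, between which fragments could be split, and Cpr67Fa2 had 2.64 FPKM in GFP_Tai and 4.21 in GFP.

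Several abundant members did not reach a 2-fold difference. Cpr12A had 120 FPKM in GFP_Tai and 74.6 in GFP, a ratio of 1.61 with an interval of 1.43 to 1.82. Cpr66D had 28.6 FPKM in GFP_Tai and 16.0 in GFP, and its log2 difference of 0.80 was the nearest to the threshold from below. Cpr49Ah had 25.9 FPKM in GFP_Tai and 21.3 in GFP, with an interval of the ratio from 0.976 to 1.52 that includes equal values. Cpr49Ag went the other way, with 39.1 FPKM in GFP_Tai and 71.6 in GFP (ratio 0.546, interval 0.445 to 0.669). The other 10 of the 32 genes had at most 4.49 FPKM in either library, and each of their intervals included equal values.

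**Figure D3:**
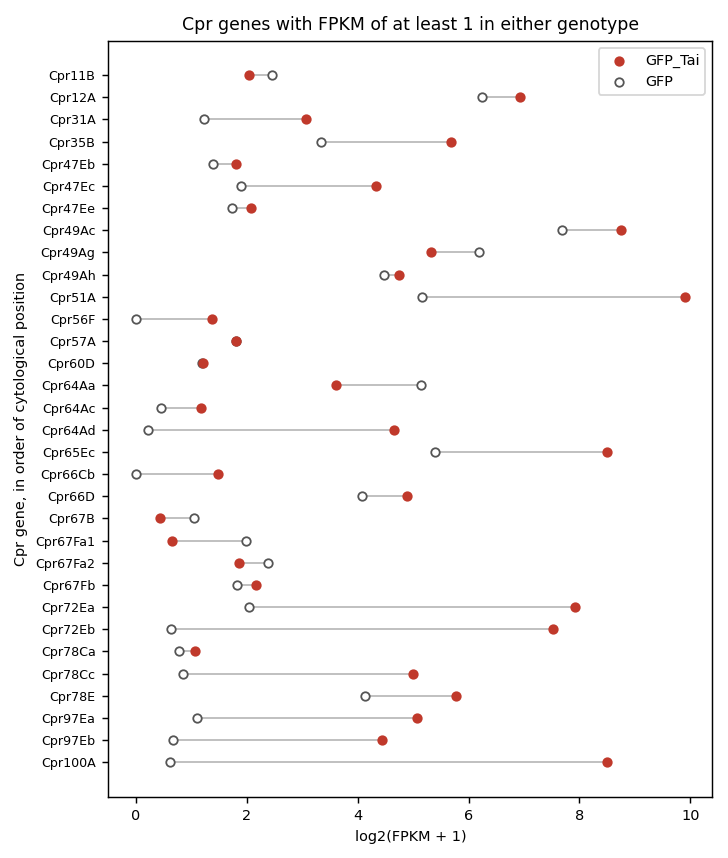
Red points give log2(FPKM + 1) in GFP_Tai and open points in GFP for the 32 Cpr genes that reached FPKM 1 in either library, ordered by cytological position from the top. Neighbouring genes with nearly the same position can differ in direction, as Cpr64Aa (11.2 FPKM in GFP_Tai, 34.5 in GFP) and Cpr64Ad (24.2 and 0.167) do.

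By cytological position, higher members were spread over 14 of the 33 positions. They lay on several arms, with 2 on 2L, 4 on 2R, 7 on 3L, 3 on 3R and 0 on X, where the whole family had 5, 21, 34, 5 and 4. No position had more than 3 members above the minimum, so no summary over a position is given and the positions are described gene by gene. At 72E, Cpr72Ea and Cpr72Eb were both higher, while the third gene, Cpr72Ec, had 0.232 FPKM in GFP_Tai and 0.101 in GFP on an estimated 3 and 1 fragments. At 97E both members were higher. At 65E, Cpr65Ec was higher, Cpr65Eb had 0.475 FPKM in GFP_Tai on an estimated 4 fragments with a listed 0 in GFP, and Cpr65Ea was listed at 0 in both.

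The largest groups lay at 49A and 47E. Of the 8 genes at 49A, 5 were listed at 0 in both libraries, Cpr49Ac was higher, and Cpr49Ag and Cpr49Ah lay within 2-fold. Of the 7 genes at 47E, 4 were listed at 0 in both and Cpr47Ec was higher. The other two, Cpr47Eb and Cpr47Ee, had 2.51 and 3.22 FPKM in GFP_Tai, against 1.64 and 2.31 in GFP. Position 64A was the only one with both directions, holding the higher Cpr64Ad, the lower Cpr64Aa, Cpr64Ab, listed at 0 in both libraries, and Cpr64Ac with 1.26 FPKM in GFP_Tai and 0.364 in GFP (ratio 3.44, interval 0.713 to 32.8). At 67F none of the 3 members was higher.

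At 65A, 62B and 76B no Cpr gene reached FPKM 1. The 65A group of 6 had 5 genes listed at 0 in both libraries, and Cpr65Ay had 0.416 FPKM in GFP_Tai on an estimated single fragment. The same stretch also holds Rebers-Riddiford genes named Lcp65A, and of those Lcp65Ad had 418 FPKM in GFP_Tai and a listed 0 in GFP, and Lcp65Ag2 had 23.5 FPKM in GFP_Tai and 1.46 in GFP. At 78C, Cpr78Cc was higher, Cpr78Cb was listed at 0 in both, and Cpr78Ca had 1.11 FPKM in GFP_Tai and 0.725 in GFP on an estimated 2 and 1 fragments. Edg78E, an ecdysone-dependent cuticle gene, lies between Cpr78Cb and Cpr78Cc and had 318 FPKM in GFP_Tai and 0.327 in GFP.

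Higher members came from every range of expression level in GFP discs. Among the 33 Cpr genes listed at 0 in GFP, 2 were higher, where 3.32% of all genes at that level were. Among the 13 above 0 and under 1 FPKM in GFP, 5 were higher, where the share of all genes was 7.40%. Among the 14 at 1 to under 10 FPKM, 5 were higher and 1 lower, where 9.26% of all genes were higher and 2.95% lower. Among the 9 at 10 FPKM or more, 4 were higher and 1 lower, where 1.14% of all genes were higher and 1.63% lower. The 4 were Cpr49Ac, Cpr65Ec, Cpr51A and Cpr78E.

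**Figure D4:**
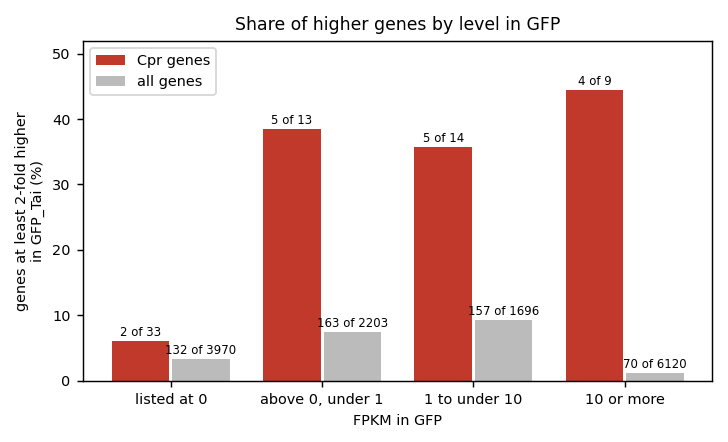
Bars give the percentage of genes at least 2-fold higher in GFP_Tai, for Cpr genes (red) and all genes of the table (grey), in 4 ranges of FPKM in GFP, with the number of higher genes and the number in the range above each bar. The red bar is 4 of 9 genes in the highest range, where the grey bar is 70 of 6120.

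In the BDGP6 annotation the median coding length was 652.5 nt for the 16 higher genes, 558 nt for the 14 that passed the minimum without a 2-fold difference, and 498 nt for the 37 under it. Over all 69 genes the median was 540 nt and the range 279 to 3693 nt. Of the 16 higher genes, 10 had 2 exons in their simplest transcript, and 40 of the 69 did. The first gene without a Cpr symbol on each side of a higher Cpr gene was also examined. These were 28 different genes, of which 15 passed the minimum, 4 were higher (CG15545, pburs, Edg78E and CG14258) and 0 were lower. Around the Cpr genes that were neither higher nor lower, 66 flanking genes held 6 higher and 2 lower ones, and 23 of the 66 passed the minimum. Over the table, 3.73% of all rows were higher and 1.07% lower, and of genes past the minimum 6.31% were higher and 1.81% lower. Edg78E counts in both sets, and Edg78E, Lcp65Ad and Lcp65Ag2 among the 6 are themselves Rebers-Riddiford genes under other names.

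Among the 16 higher genes, 2 overlap another gene of the table on the opposite strand, and no source used here says that counting used the strand. Cpr51A overlaps CG30197, which had 31.3 FPKM in GFP_Tai and 7.45 in GFP, far below Cpr51A itself. Cpr56F overlaps CkIIbeta2, which had 0.153 FPKM in GFP_Tai and a listed 0 in GFP.

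The authors' deposited table, which has the column layout of Cuffdiff, tested 32 of the 69 genes and called 0 of them, where it called 0.131% of all 8374 tested genes. No Cpr gene had an unadjusted p under 0.05 in the authors' deposited table. The p-values there ran from 0.1114 for Cpr56F to 0.82815 for Cpr57A, and every q-value was 0.999524. Cpr100A had p = 0.2439 and Cpr51A p = 0.1548 in the authors' deposited table. Both exceeded the p of Cpr56F, which had only 1.60 FPKM in GFP_Tai, so these p-values did not follow the size of the difference. Of 13 tested Rebers-Riddiford genes under other names, the authors' deposited table called 2.

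Other genes of cuticle formation were compared over lists chosen with earlier results of these data known. Beside the counts of this and the following lists stand the shares of the whole table. Of all rows 3.73% were higher and 1.07% lower, and of genes past the minimum 6.31% and 1.81%. Of 27 Rebers-Riddiford genes that carry other names, 13 passed the minimum, 9 were higher and 4 lower. For the 13, the median of the log2 difference was 1.82, and over all 27 it was 0. The largest differences were those of Lcp65Ad, Edg78E, Edg84A (149 FPKM in GFP_Tai, listed at 0 in GFP) and Ccp84Ad (25.5 FPKM in GFP_Tai and 0.241 in GFP). The 4 lower genes were the larval cuticle genes Lcp1 to Lcp4, whose highest level was 1.76 FPKM in GFP_Tai and 30.0 in GFP, both for Lcp1. Of 25 Tweedle genes, another family of structural cuticle proteins, 5 passed the minimum, 4 were higher and 0 lower, with a median of 4.73 over the 5 and 0 over the 25. They were TwdlT, with 205 FPKM in GFP_Tai and 1.67 in GFP, TwdlBeta, with 64.6 and 1.24, TwdlE, with 281 and 9.58, and TwdlC, with 16.6 and a listed 0.

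Genes of the chitin matrix were mostly above equal values too. Of 17 such genes 9 were higher and 0 lower, and all 16 above the minimum lay above 0, with a median log2 difference of 1.26. Those with the largest differences were obst-E, with 7.24 FPKM in GFP_Tai and 0.158 in GFP, and the chitin deacetylase gene Cda5, with 16.6 and 1.56. Next were Gasp, a chitin-binding protein gene, with 328 FPKM in GFP_Tai and 90.9 in GFP, and the chitinase gene Cht5, with 146 and 47.3. The chitin synthase gene kkv had 120 FPKM in GFP_Tai and 86.9 in GFP.

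Of 15 regulators of the ecdysone cascade, 14 passed the minimum, 3 were higher and 0 lower, where 6.31% of all genes past the minimum were higher. For the 14, the median of the log2 difference was 0.10. The nuclear receptor gene ftz-f1, known for its role in prepupal gene expression, including that of cuticle genes such as Edg84A, had 12.6 FPKM in GFP_Tai and 2.69 in GFP. Eip93F, a late steroid-response factor, had 3.22 FPKM in GFP_Tai and 0.0525 in GFP, and Hr46 (Hr3), an activator of ftz-f1, had 34.9 and 14.0. By contrast the repressor of ftz-f1, Blimp-1, had 18.7 FPKM in GFP_Tai and 17.0 in GFP. EcR, with 43.2 and 35.2, br, with 297 and 315, and Eip74EF, with 27.6 and 29.3, also lay within 2-fold, as did Eip78C, with 38.2 and 27.3.

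**Figure D5:**
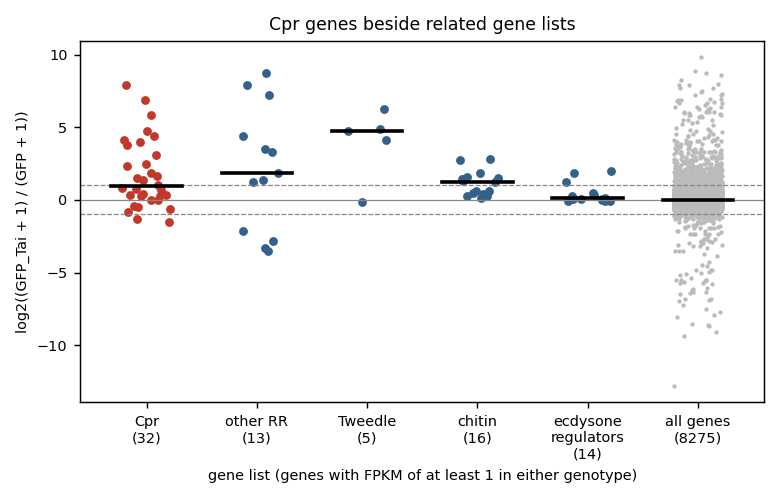
Each point is a gene that reached FPKM 1 in either library, with its log2 difference on the vertical axis, for the Cpr genes, 4 related lists and all 8275 such genes; bars are medians, dashed lines mark a 2-fold difference and numbers below are gene counts. The Cpr median is 0.93, beside 1.82 for other Rebers-Riddiford genes, 4.73 for Tweedle, 1.26 for chitin genes, 0.10 for ecdysone regulators and -0.02 for all genes; over all rows, with genes under the minimum included, the medians of the Cpr, other Rebers-Riddiford and Tweedle lists are 0.

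Markers of other tissues that could remain attached to discs were measured in the same libraries, where 3.73% of all rows were higher and 1.07% lower. The trachea list (trh, btl and pio) had 0 of 3 genes different, with a summed level of 264 FPKM in GFP_Tai and 284 in GFP. Most of that sum came from pio alone, with 240 FPKM in GFP_Tai and 259 in GFP. Whether trachea or the disc epithelium expressed pio was not tested, so the sum is not a measure of trachea alone. The trh gene had 20.2 and 21.3, and btl 3.45 and 3.47. The myoblast and muscle list had 0 of 6 different, with 71.1 FPKM in GFP_Tai and 76.8 in GFP, and the neuron list 0 of 4, with 10.2 and 10.5. The sums of the trachea and muscle lists were thus slightly lower in GFP_Tai. Most of the neuron sum came from elav, with 7.19 FPKM in GFP_Tai and 9.32 in GFP. The other 3 neuron genes had low values that were greater in GFP_Tai, such as n-syb, with 0.828 FPKM in GFP_Tai and 0.103 in GFP. The fat body list had 1 of 6 higher, with 34.0 FPKM in GFP_Tai and 21.8 in GFP, and the blood cell list 1 of 6 higher, with 16.3 and 8.43. In each of these lists all 6 genes had greater values in GFP_Tai, most of them within 2-fold. Of 7 gut protease genes, 6 were higher, with a sum of 307 FPKM in GFP_Tai, and all 7 were listed at 0 in GFP. The salivary gland list had 3 of 6 higher, with sums of 12.3 FPKM in GFP_Tai and 0.786 in GFP. The part of these tissues in the Cpr differences was not tested.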

How the data were processed

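Larvae grew at 25 °C per the labels' protocols, discs were dissected in sessions of 2 h, and 4 µg of total RNA per library was depleted of ribosomal RNA. Cuffdiff 2.2.1, TopHat2 2.0.12, CASAVA 1.4 and the build dm6 are named in the submitters' processing notes without their roles. How replicates were combined, and which annotation was used, is not given in the sources used here. Values deposited are FPKM as scaled by the authors, and a p-value and q-value accompany each gene per the file headers. The authors' log2 fold changes were recomputed with a pseudocount of 1, as some held error text. The loci in the table were offset from dm6, so coordinates, strands and coding lengths come from Ensembl release 115 (BDGP6), matched by symbol, and all 69 members matched.

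Members and lists were chosen with earlier results of these data known. Genes at least 2-fold higher or lower were counted, with an FPKM minimum of 1 for medians. Named members were those past 2-fold, those with FPKM 10 or more in either library, and those the authors called; of each list, up to 4 with the largest differences and fixed regulators were named, and genes outside this rule were chosen after their values were seen. For the fragment estimates, 304 genes shared the ratio 0.765, taken as equal fragments in both libraries. The value of 1 fragment came from the tightest cluster, 44 of 133 protein-coding genes with a single transcript at that ratio. The same cluster gave the 215 nt that were taken off each transcript length. Of 45 member values between 1 and 20 estimated fragments, 88.9% came out whole within 0.1, where chance gives 20%. Where transcripts differed, the shortest was used. Its length was adjusted by the difference between the BDGP6 and deposited gene spans, unless that left less than the shortest coding length. Ratios and intervals used Python 3.11.15, pandas 2.3.3, numpy 2.4.6 and scipy 1.17.1, and the computations were tested on simulated data. Protein classes and promoter motifs were not analysed here.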

Additional observations from a re-analysis of the deposited data

How the results depend on the processing

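The number of higher Cpr genes (16) stayed within 1.5 times under every alternative tried, from 11 at a 4-fold threshold to 19 at 1.5-fold. It was 17 with a pseudocount of 0.1, 13 with a pseudocount of 5, and 14 without genes listed at 0. The number of lower Cpr genes (2) was 1 with a pseudocount of 5, 1 at a minimum FPKM of 5, 4 at a 1.5-fold threshold and 0 at 4-fold. It was also 1 when the counting interval had to lie wholly past 2-fold. The median log2 difference (0.93) was 0 with no minimum FPKM, since the 24 genes listed at 0 in both libraries then enter. It ran from 0.55 with a pseudocount of 5 to 2.44 at a minimum of 5 in the other settings. Of 30 alternative values, 24 stayed within the limits set for each, 6 moved and 0 reversed. The counting interval, the minimum of 10 fragments and the removal of 5 members that overlap another gene were chosen after seeing the data, and without those 5 genes 14 were higher and 2 lower. Medians by cytological position were not run, because no position had 4 members above the minimum. No paired analysis was possible because each genotype has 1 value per gene, and no replicate could be left out. Depth limits the ratios of genes with few fragments in GFP, such as Cpr64Ad, and of every gene under FPKM 1 in both libraries.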
